A study of Homo sapiens with 12 samples.

Results

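Human kidney tubule cells treated with an inhibitor of the kinases CDK8 and CDK19, with no doxycycline given, were compared with vehicle-treated cells. The comparison used 6 of the 12 RNA sequencing libraries of the series, 3 labelled MSC2530818 and 3 labelled vehicle. Its genes were those with at least 1 FPKM in at least 3 of the 12 libraries, and 12649 of 26334 listed genes met that rule (48.0%). FPKM counts sequenced fragments per length of transcript, scaled to the mapped fragments of the library. The rule reads levels only and no difference between groups.

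Mediator is the large complex that passes signals from DNA-bound transcription factors to RNA polymerase II. Its detachable kinase module holds CDK8 or CDK19 together with cyclin C, MED12 or MED12L, and MED13 or MED13L. The module can restrain or assist transcription, and its kinases are known to act on factors of the STAT, SMAD, Notch and NF-kB pathways and on the response to serum. MSC2530818 is a small molecule that blocks both kinases.

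HK-2 is a line of human renal proximal tubule cells immortalized with the E6 and E7 genes of a papillomavirus, which act on p53 and the retinoblastoma protein. All 4 groups of the series carried a PRCC-TFE3 fusion gene that doxycycline switches on and were grown with puromycin and blasticidin in low serum of a grade tested for tetracycline. The vehicle group received DMSO, and the inhibitor group received 100 nM MSC2530818, each for 48 h and each without doxycycline. The other 2 groups received doxycycline with or without the inhibitor and enter here through the shared estimate of the spread and as a comparison at the end. The labels call the 3 libraries of a group independent biological replicates. Whether the line is 1 clone is not given in the sources used here.

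The libraries held RNA of epithelial genes and of a tubule transcription factor but only part of the defining proximal tubule genes. In the 6 libraries, the tubule transcription factor PAX8 ranged from 84.39 to 134.85 FPKM, and the epithelial marker EPCAM from 44.9 to 54.16 FPKM. The brush border enzyme GGT1 ranged from 36.48 to 46.34 FPKM. The proximal tubule receptors LRP2 and CUBN did not exceed 0.01 and 0.06 FPKM, the phosphate transporter SLC34A1 0.07 FPKM and E-cadherin (CDH1) 0.01 FPKM. UMOD, SLC12A1, AQP2 and CD3E, which mark other kidney segments and T cells, were listed at 0 in all 6, and the endothelial marker CDH5 and the monocyte marker CD14 did not exceed 0.18 and 0.28 FPKM.

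The 6 libraries had between 11952 and 12218 genes at 1 FPKM or more, and their FPKM summed to between 429208 and 473950. The first principal component of the 6, with 55.2% of the variance, put the vehicle libraries between -27.7 and -12.4 and the inhibitor libraries between 13.7 and 28.8. Replicate 1 of both groups stood apart on the second component (28.2% of the variance), at 24.3 and 15.2 against -19.7 to 0.1 for the others. Without replicate 1 of all groups 5587 genes were called, 4309 of them shared with the 12-library fit described next. No read counts were used, so the depth behind each value is unknown.

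With the inhibitor, 4802 of 12649 genes changed (38.0%) by limma's test on log2(FPKM + 1), with a Benjamini-Hochberg adjusted p under 0.05 over all genes tested. Of these, 1479 rose (11.7% of the genes tested) and 3323 fell (26.3%). Most changes were small. Only 161 genes rose and 72 fell by at least 2-fold on this scale, which understates the change of genes at low levels. The median change over all genes was -0.12 (log2), and after median-ratio scaling of the libraries, which moved that median to -0.01, 2204 genes rose and 1811 fell. Rises made up 30.8% of the calls on the values as they stand in the table and 54.9% on the scaled values. Quantile normalization gave 2023 rises and 2048 falls, a share of 49.7%. Every list described below is read against these backgrounds, and the count after median-ratio scaling is given where it changed the prevailing direction or moved the larger count by more than 1.5 times.

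**Figure D1:**
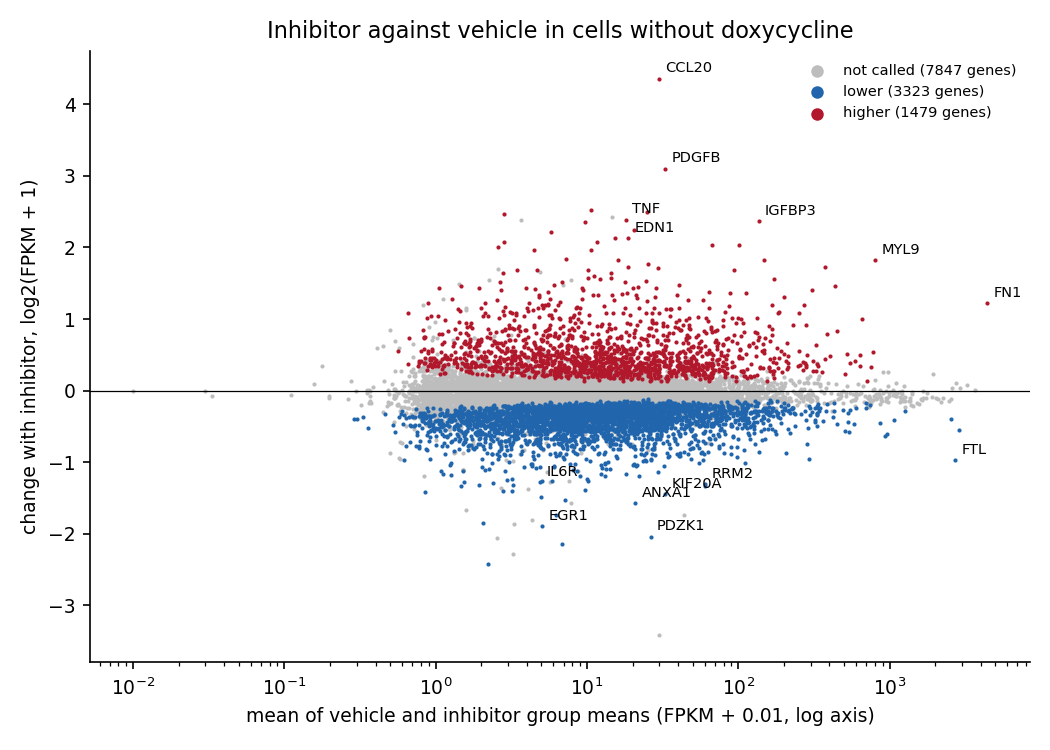
Each point is 1 of the 12649 genes, with the mean of the vehicle and inhibitor group means on the horizontal axis (FPKM + 0.01, log axis) and the change with the inhibitor on the vertical axis (log2 of FPKM + 1). Red points are the 1479 genes that rose and blue points the 3323 that fell; among the labelled genes the rises reach 4.36 (CCL20) and the falls -2.04 (PDZK1).

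The largest rises included genes for secreted factors and for the contractile apparatus. The 15 largest, among genes whose groups did not overlap, were CCL20, PDGFB, IQCD, CITED4, MYL7, TNF, IGFBP3, EPPK1, NIPAL4, SPOCD1, TNFSF10, EDN1, ACTA2, RASSF4 and ALDH1B1, with log2 changes from 4.36 down to 2.04. The 15 largest falls were those of PDZK1, EGR1, ENPP2, ANXA1, RBM47, ELFN2, KIF20A, SMPD1, CNKSR3, S100A2, HIST1H2BH, TMEM40, RRM2, DEFB1 and IL6R, from -2.04 to -1.28. They include a scaffold of the apical membrane (PDZK1), a zinc-finger transcription factor that answers growth signals (EGR1), the enzyme that makes lysophosphatidic acid (ENPP2, autotaxin), acid sphingomyelinase (SMPD1) and an epithelial defensin (DEFB1). All 30 calls held under every processing alternative and with each of the 6 libraries left out, but these genes were chosen for large changes and separate groups. On GRCh38, with the gene models of GENCODE release 29, PDGFB lies on chromosome 22 at 39223359 to 39244751 (minus strand), TNF on chromosome 6 at 31575567 to 31578336 (plus strand), PDZK1 on chromosome 1 at 145670852 to 145708148 (minus strand) and RRM2 on chromosome 2 at 10120698 to 10131419 (plus strand).

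The promoters of 4 of these genes are shown because each holds 1 of the motifs searched in the promoters of genes that moved: CCL20 and CITED4, which rose, a kappa-B core, and EGR1 and KIF20A, which fell, a STAT motif. The sequences are the 250 bases before the transcription start, 5′ to 3′ on the strand of the gene, from RefSeq on build GRCh38.p14. They lie at chr2:227813592-227813841 (plus strand) for CCL20, chr1:40862364-40862613 (minus strand) for CITED4, chr5:138465229-138465478 (plus strand) for EGR1 and chr5:138178862-138179111 (plus strand) for KIF20A. Capitals mark the match, to the opposite strand of GGNNNTTCC for CCL20 and CITED4 and to TTCNNNGAA for EGR1 and KIF20A.
CCL20: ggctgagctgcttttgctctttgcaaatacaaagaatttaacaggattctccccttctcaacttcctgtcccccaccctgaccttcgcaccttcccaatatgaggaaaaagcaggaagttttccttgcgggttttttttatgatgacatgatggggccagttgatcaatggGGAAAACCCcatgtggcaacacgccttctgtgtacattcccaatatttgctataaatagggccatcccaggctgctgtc
CITED4: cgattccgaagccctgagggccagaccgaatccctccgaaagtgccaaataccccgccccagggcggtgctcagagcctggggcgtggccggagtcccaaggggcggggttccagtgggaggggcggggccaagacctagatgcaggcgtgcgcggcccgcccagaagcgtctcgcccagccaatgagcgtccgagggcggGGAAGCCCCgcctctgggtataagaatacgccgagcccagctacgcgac
EGR1: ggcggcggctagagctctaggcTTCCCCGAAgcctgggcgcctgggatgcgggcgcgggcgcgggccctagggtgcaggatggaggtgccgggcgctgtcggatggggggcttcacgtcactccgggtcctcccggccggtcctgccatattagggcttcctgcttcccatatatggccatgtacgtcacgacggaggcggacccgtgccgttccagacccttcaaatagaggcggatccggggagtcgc
KIF20A: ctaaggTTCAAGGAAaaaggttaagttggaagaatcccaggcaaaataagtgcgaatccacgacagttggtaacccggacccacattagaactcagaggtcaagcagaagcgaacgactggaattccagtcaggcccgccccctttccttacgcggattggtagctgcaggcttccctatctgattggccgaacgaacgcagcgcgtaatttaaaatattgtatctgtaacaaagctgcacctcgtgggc

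The kappa-B core GGNNNTTCC, searched on both strands from 250 bases before to 50 after each start, was found in 36 of 188 promoters of genes that rose by at least 2-fold (19.1%). It was found in 12 of 80 promoters of genes that fell as far (15%), in 22.9% of the promoters of all tested genes and in 20.1% of all promoters in the table. NIPAL4, EDN1 and ALDH1B1, which rose, and RBM47, ELFN2, CNKSR3 and RRM2, which fell, also hold it. For the AP-1 motif TGANTCA the shares were 9.04% of the promoters of these rises, 11.2% of those of the falls and 5.09% of those of tested genes. ACTA2, which rose, and ANXA1, which fell, hold the STAT motif as EGR1 and KIF20A do. The STAT motif TTCNNNGAA was found in 7.98%, 13.8% and 6.16%, and the E-box CACGTG in 6.91%, 7.50% and 9.54%, in that order. Promoters could be matched for 9426 of the 12649 genes. A match says only that these letters are in the window.

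Chemokine, interleukin and TNF family genes moved mostly upward. Of 12 tested genes for interleukins, TNF family members and colony-stimulating factors, 9 rose and 2 fell, and of 8 chemokine genes 4 rose and none fell. CCL20 attracts lymphocytes and dendritic cells. It measured 1.86, 2.39 and 1.45 FPKM in the vehicle libraries and 49.2, 62.5 and 63.0 FPKM in the inhibitor libraries, which gives the largest rise under the naming rule (log2 change 4.36 ± 0.15 (SE), adjusted p = 1.4e-08). TNF, the founding cytokine of its family, measured 5.64, 4.87 and 4.76 FPKM with vehicle and 31.1, 30.4 and 31.1 FPKM with the inhibitor (log2 change 2.39 ± 0.10, adjusted p = 4.1e-08). TNFSF10, the death ligand TRAIL, measured 4.81, 5.45 and 4.79 FPKM with vehicle and 20.5, 27.4 and 29.1 FPKM with the inhibitor (2.13 ± 0.14, adjusted p = 8.9e-07). For all 3 genes the lowest inhibitor library lay far above the highest vehicle library, but the naming rule admitted only genes whose groups did not overlap.

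The colony-stimulating factors CSF2 and CSF1, which act on myeloid cells, rose too. CSF2 went from 5.80, 5.59 and 5.36 FPKM to 22.5, 16.8 and 16.7 FPKM (log2 change 1.56 ± 0.15, adjusted p = 1.2e-05), and CSF1 from 7.12, 5.72 and 6.22 to 14.4, 15.3 and 13.2 FPKM (1.06 ± 0.08, adjusted p = 2.1e-06). Smaller rises were those of the neutrophil chemokine CXCL8, from 202.4 ± 16.8 to 299.5 ± 19.0 FPKM (SD, n = 3), of IL6, from 36.5 ± 2.3 to 52.6 ± 2.0 FPKM, and of LIF, from 43.3 ± 2.7 to 62.6 ± 1.0 FPKM. CCL2 rose at a low level, from 0.31 ± 0.31 to 1.31 ± 0.29 FPKM. The exceptions were IL11, a cytokine of the IL6 family, which measured 7.44, 6.75 and 5.67 FPKM with vehicle and 2.61, 2.97 and 2.24 FPKM with the inhibitor (-1.08 ± 0.11, adjusted p = 1.9e-05), and the costimulatory ligand TNFSF9, which fell from 37.8 ± 2.3 to 23.3 ± 3.4 FPKM.

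**Figure D2:**
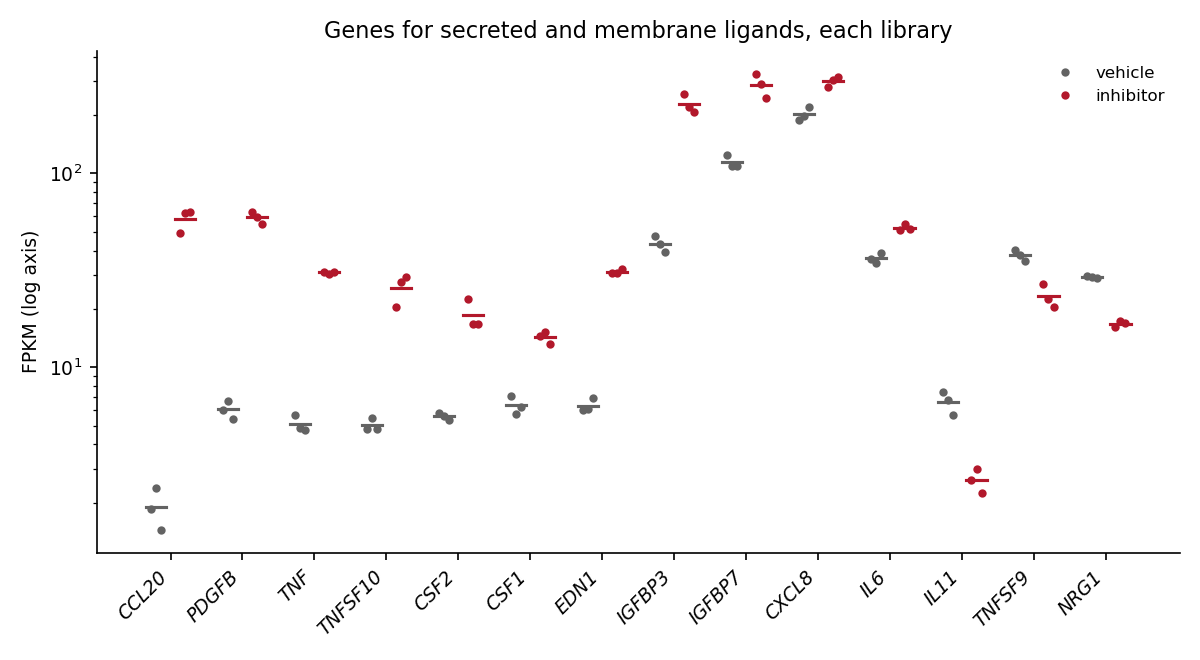
Points give FPKM on a log axis in each of the 3 vehicle (grey) and 3 inhibitor (red) libraries for genes of secreted and membrane ligands, and the short lines mark group means. The inhibitor libraries of CCL20, PDGFB and TNF lie far above the vehicle libraries, and those of IL11, TNFSF9 and NRG1 lie below.

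Of 26 NF-kB subunits, regulators and feedback genes, 8 rose and 3 fell. The inhibitor of NF-kB, NFKBIA, is itself induced by that factor. It measured 43.5, 38.2 and 35.1 FPKM with vehicle and 95.3, 90.4 and 79.3 FPKM with the inhibitor (log2 change 1.16 ± 0.09, adjusted p = 2.1e-06), with no overlap of the groups. RELB, a subunit, rose from 14 ± 1.7 to 23.2 ± 2.6 FPKM and TNIP1 by 0.58 (log2), while the atypical regulator NFKBIZ fell by 0.50 and the deubiquitinase CYLD by 0.59. Receptors did not follow the ligands as a group: of 19 cytokine and innate receptors, 4 rose and 6 fell (4 and 5 after median-ratio scaling). IL6R, the receptor chain that binds IL6, fell from 7.62, 7.19 and 7.22 FPKM to 2.63, 2.52 and 2.20 FPKM (-1.28 ± 0.07, adjusted p = 2.0e-07). TNFRSF1A, the main TNF receptor, fell from 36.9 ± 1.4 to 24.5 ± 2.3 FPKM (-0.57), and IL4R rose by 0.73.

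Among 29 growth and angiogenic factors 10 rose and 5 fell. PDGFB, which acts on mesenchymal cells and pericytes, measured 6.01, 6.72 and 5.44 FPKM with vehicle and 63.2, 59.8 and 55.0 FPKM with the inhibitor (log2 change 3.10 ± 0.08, adjusted p = 2.7e-09). EDN1, the vasoconstrictor endothelin 1, measured 6.01, 6.09 and 6.92 FPKM and then 30.6, 30.6 and 32.0 FPKM (2.13 ± 0.08, adjusted p = 1.8e-08). IGFBP3, which binds insulin-like growth factors, measured 47.3, 43.5 and 39.3 FPKM and then 258.5, 219.3 and 208.0 FPKM (2.37 ± 0.09, adjusted p = 2.5e-08). In each of these genes every inhibitor library exceeded every vehicle library, but the rule that named them required groups without overlap, so this adds no evidence. IGFBP7 rose from 114.4 ± 8.5 to 287.6 ± 40.8 FPKM, and NRG1, a ligand of ERBB receptors, fell from 29.1 ± 0.28 to 16.8 ± 0.61 FPKM (-0.76 ± 0.05, adjusted p = 1.2e-06).

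The neuropilins, co-receptors for VEGF and semaphorins, moved in opposite directions. NRP2 measured 3.90, 3.91 and 3.54 FPKM with vehicle and 18.3, 17.9 and 16.7 FPKM with the inhibitor (log2 change 1.96 ± 0.07, adjusted p = 2.0e-08). NRP1 measured 17.0, 18.1 and 17.1 FPKM with vehicle and 7.39, 8.33 and 7.41 FPKM with the inhibitor (-1.08 ± 0.07, adjusted p = 8.4e-07). NRP1 thus had the higher level in vehicle-treated cells and NRP2 in inhibitor-treated cells. Of the 21 growth factor receptors tested 5 rose and 7 fell, against 8 and 6 after median-ratio scaling. FGFR1 rose from 12 ± 0.88 to 30.9 ± 1.6 FPKM (1.30), and AXL, the receptor for GAS6, fell from 176.7 ± 13.5 to 96.5 ± 4.5 FPKM (-0.86).

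Most contractile cytoskeleton genes rose. Of 28 tested genes for smooth muscle actins, myosin light chains, their partners and targets of the serum response factor, 20 rose and 5 fell, with a median change of 0.52 against -0.12 over all genes. MYL9, a regulatory myosin light chain, measured 399.5, 350.2 and 316.5 FPKM with vehicle and 1426, 1194 and 1149.6 FPKM with the inhibitor (log2 change 1.82 ± 0.10, adjusted p = 1.9e-07). ACTA2, smooth muscle alpha actin, measured 0.43, 0.47 and 0.47 FPKM with vehicle and 6.02, 4.95 and 4.61 FPKM with the inhibitor (2.08 ± 0.10, adjusted p = 1.1e-07). MYL7, another regulatory light chain but not a member of this list, measured 0.14, 0.20 and 0.11 FPKM and then 6.75, 5.59 and 4.08 FPKM (2.47 ± 0.14, adjusted p = 2.8e-07). The groups did not overlap for any of them, which the naming rule required of ACTA2 and MYL7. MYL9 was abundant in every library while ACTA2 and MYL7 stayed under 10 FPKM.

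TAGLN (transgelin) rose from 172.5 ± 25.1 to 571.4 ± 61.4 FPKM (1.73), the actin crosslinker ACTN1 from 160.5 ± 15.5 to 341.1 ± 20.1 FPKM (1.09) and the serum response factor gene SRF itself from 20.3 ± 2.1 to 37.0 ± 1.2 FPKM (0.84 ± 0.06, adjusted p = 3.0e-06). Not all members shared the direction. Filamin C (FLNC) fell from 45.8 ± 4.2 to 23.8 ± 1.1 FPKM (-0.91 ± 0.07, adjusted p = 2.3e-06) and calponin (CNN1) from 5.90 ± 0.62 to 3.15 ± 0.26 FPKM (-0.73).

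The extracellular matrix list moved the same way, with 22 of 36 genes higher and 2 lower. Fibronectin (FN1) measured 2814, 2669 and 2459 FPKM with vehicle and 6115, 6234 and 6135 FPKM with the inhibitor (log2 change 1.22 ± 0.06, adjusted p = 8.8e-08). Tenascin C (TNC) rose from 1.69 ± 0.28 to 6.24 ± 0.54 FPKM (1.43) and anchoring-fibril collagen VII (COL7A1) from 87.6 ± 3.2 to 177.3 ± 14.9 FPKM (1.01). The 2 that fell were EFEMP1, a fibulin, from 10.7 ± 0.81 to 5.75 ± 0.48 FPKM, and the lysyl oxidase LOXL4, by 0.46.

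Of 20 integrins and laminins 8 rose and 4 fell. Laminin chains of epithelial basement membranes did not all move together. LAMB3 measured 11.6, 10.2 and 9.51 FPKM with vehicle and 31.6, 29.9 and 28.2 FPKM with the inhibitor (log2 change 1.44 ± 0.08, adjusted p = 3.9e-07), and LAMC1 rose from 65.9 ± 1.7 to 134.5 ± 2.9 FPKM (1.02 ± 0.05, adjusted p = 5.6e-08). LAMA3 measured 7.19, 8.15 and 8.01 FPKM with vehicle and 7.36, 8.03 and 7.88 FPKM with the inhibitor (adjusted p = 0.98), so its groups overlapped. Integrin beta 4 (ITGB4), a laminin receptor chain, fell from 2.56 ± 0.51 to 1.32 ± 0.20 FPKM (-0.61).

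Matrix proteases and the plasminogen system gave 11 rises and 7 falls among 24 genes. Both plasminogen activators rose, PLAT from 12.1 ± 0.87 to 36.8 ± 1.9 FPKM (1.53 ± 0.07, adjusted p = 1.1e-07) and PLAU from 116.7 ± 11.1 to 248.9 ± 27.8 FPKM (1.08 ± 0.09, adjusted p = 3.3e-06). TFPI, an inhibitor of the tissue factor pathway, fell from 16.9 ± 4.2 to 8.79 ± 3.0 FPKM (-0.89 ± 0.22, adjusted p = 0.009). In all 3 genes the groups were separate.

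Junction and keratin genes were divided, with 11 of 34 higher and 7 lower. The claudins CLDN1 and CLDN16 rose, from 169.5 ± 6.6 to 447.4 ± 15 FPKM (1.40) and from 4.63 ± 0.39 to 15.8 ± 1.8 FPKM (1.57). Plakophilin 3 (PKP3) of desmosomes fell from 10.6 ± 1.2 to 4.71 ± 0.63 FPKM (-1.02), and the tight junction scaffold TJP1 from 23.0 ± 3.5 to 14.3 ± 3.1 FPKM (-0.66). Of 10 mesenchymal transition factors 3 rose and 4 fell, among them SNAI1, a repressor of E-cadherin, from 9.72 ± 0.50 to 4.78 ± 0.30 FPKM (-0.89). Among 40 genes of TGF-beta and BMP signalling 18 rose and 9 fell (19 and 3 after median-ratio scaling), with the ligands INHBA (35.2 ± 2.3 to 73.7 ± 12.6 FPKM) and TGFB2 (32.9 ± 3.5 to 52.9 ± 7.2 FPKM) higher and TGFB1 lower (44.9 ± 3.9 to 29.2 ± 3.6 FPKM). ID2, a BMP target that blocks helix-loop-helix factors, fell from 4.90 ± 0.46 to 1.50 ± 0.21 FPKM (-1.24 ± 0.11, adjusted p = 8.3e-06).

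Immediate early genes, the first to answer growth signals, did not share a direction: of 26 tested 10 rose and 7 fell. EGR1 measured 9.24, 9.27 and 7.12 FPKM with vehicle and 1.64, 1.58 and 1.47 FPKM with the inhibitor (log2 change -1.89 ± 0.09, adjusted p = 1.2e-07). IER2 fell from 25.6 ± 1.9 to 17.1 ± 2.0 FPKM and JUN, an AP-1 subunit, from 58.4 ± 1.4 to 40.0 ± 3.2 FPKM (-0.54), while MYC rose from 119.8 ± 10.3 to 177.7 ± 3.8 FPKM (0.57 ± 0.06, adjusted p = 4.0e-05). Of 18 ERK feedback genes 7 rose and 3 fell, with the ERK phosphatase DUSP5 higher (19.2 ± 3.0 to 38.1 ± 4.2 FPKM).

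The Wnt/beta-catenin list held 7 rises and 7 falls among 32 genes (9 and 5 after median-ratio scaling). The secreted Wnt antagonist DKK1 fell from 148.4 ± 8.6 to 72.9 ± 3.9 FPKM (-1.01 ± 0.06, adjusted p = 6.9e-07), and TCF7L2, a factor that works with beta-catenin, by 0.77 (log2). Of 23 Notch genes 4 rose and 3 fell, and 8 rose after median-ratio scaling; the ligand JAG1 rose from 20.4 ± 0.76 to 46.1 ± 2.7 FPKM (1.14 ± 0.06, adjusted p = 1.2e-07). Of 24 genes of the Hippo pathway and its targets 3 rose and 10 fell, including the kinase LATS2 (-0.67) and the scaffold AMOT (-0.74).

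Most cell cycle genes fell. Of 53 genes of the G1/S transition and DNA replication 39 fell and 2 rose (median -0.36), and of 50 genes of G2/M and mitosis 40 fell and none rose (median -0.68, against -0.12 over all genes). After median-ratio scaling 26 and 38 of them fell. Ribonucleotide reductase subunit M2 (RRM2), which supplies deoxynucleotides, measured 86.5, 83.3 and 88.9 FPKM with vehicle and 36.3, 32.5 and 34.1 FPKM with the inhibitor (log2 change -1.31 ± 0.07, adjusted p = 1.8e-07). KIF20A, a kinesin of the central spindle, measured 51.3, 48.0 and 46.1 FPKM and then 17.1, 18 and 16.1 FPKM (-1.45 ± 0.07, adjusted p = 1.4e-07). In both genes the 3 libraries of a group lay close together and the groups far apart, but the rule that named them required groups without overlap. Whether fewer cells were cycling or each cell held less of these RNAs cannot be told apart in bulk libraries, and the same holds for every other gene described.

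The mitotic kinases AURKA and PLK1 fell from 116.0 ± 2.7 to 62.4 ± 3.7 FPKM (-0.89) and from 69.7 ± 5.4 to 39.7 ± 3.7 FPKM (-0.80), and cyclin B1 (CCNB1) from 121.6 ± 5.2 to 76.0 ± 2.9 FPKM (-0.67). Replicate 1 was low in both groups for 2 proliferation genes chosen after their values were seen. MKI67, which encodes Ki-67, measured 34.0, 60.8 and 65.0 FPKM with vehicle and 17.2, 30.2 and 36 FPKM with the inhibitor (-0.92 ± 0.26, adjusted p = 0.017), so its groups overlapped. TOP2A, topoisomerase II alpha, measured 47.3, 96.4 and 114.1 FPKM and then 29.6, 58.1 and 74.2 FPKM and did not pass the test (-0.66 ± 0.34, adjusted p = 0.15). Without replicate 1 of all groups the adjusted p were 7.9e-05 for MKI67 and 0.0031 for TOP2A, but the call for MKI67 was lost without vehicle replicate 2 or 3 (adjusted p = 0.066 and 0.065) and in a fit of the 6 libraries alone (0.08). One regulator of the G1 phase went the other way: cyclin D1 (CCND1) rose from 43.3 ± 1.3 to 70.7 ± 2.3 FPKM (0.69 ± 0.06, adjusted p = 4.3e-06).

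Of 39 CDK inhibitors and p53 targets 6 rose and 15 fell. CDKN2B, the inhibitor p15, rose from 6.91 ± 0.41 to 12.3 ± 0.88 FPKM (0.75) and the cell death gene PMAIP1 (NOXA) from 17.7 ± 2.6 to 35.9 ± 2.0 FPKM (0.99), while CDKN3, a phosphatase expressed in cycling cells, fell from 44.1 ± 3.5 to 20.8 ± 2.2 FPKM (-1.05). Among 17 histone genes 10 fell, with H2AFX going from 77.1 ± 8.5 to 41.5 ± 4.8 FPKM (-0.88), and 1 rose, HIST1H2BK, from 8.70 ± 0.45 to 26.8 ± 1.7 FPKM (1.52 ± 0.06, adjusted p = 2.8e-08). Of 48 Polycomb and chromatin regulators 18 fell and 4 rose. The rises included the DNA methyltransferase DNMT3B, from 11.2 ± 1.1 to 32.4 ± 0.59 FPKM (1.45 ± 0.07, adjusted p = 1.4e-07).

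**Figure D3:**
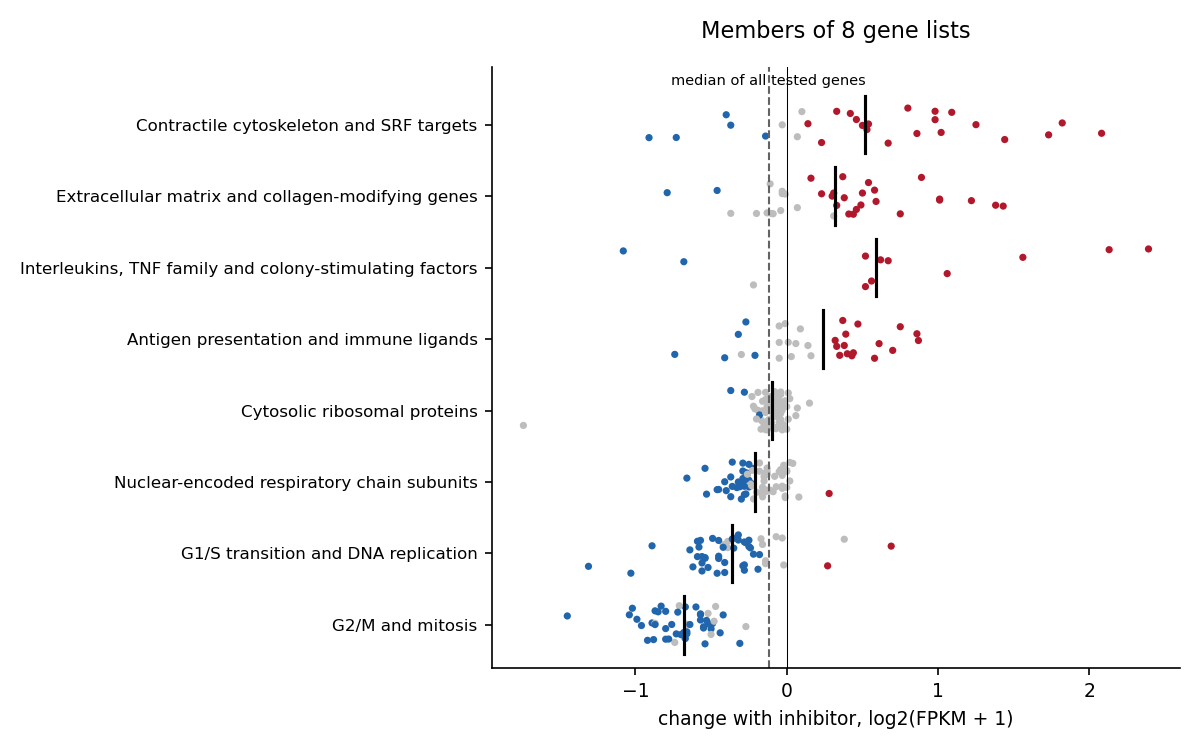
Each point is a tested member of 1 of 8 gene lists, placed by its change with the inhibitor (log2 of FPKM + 1) and coloured red where it rose, blue where it fell and grey where it was not called. Black lines mark list medians, and the dashed line marks the median of all tested genes at -0.12. The list medians run from 0.59 for interleukins, TNF family and colony-stimulating factors to -0.68 for G2/M genes, with contractile genes at 0.52.

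Lipid genes moved by branch. Of 37 genes of cholesterol synthesis, uptake and efflux 4 rose and 16 fell (6 and 10 after median-ratio scaling). HMGCS1, an early enzyme of cholesterol synthesis, fell from 49.2 ± 3.5 to 29.3 ± 3.8 FPKM (-0.74), while the efflux pump ABCA1 rose from 9.05 ± 1.3 to 25 ± 5.6 FPKM (1.35 ± 0.16, adjusted p = 5.8e-05). Fatty acid and triglyceride synthesis gave 8 rises and 3 falls among 34 genes, with the desaturase SCD going from 195.9 ± 18.2 to 367.9 ± 16.3 FPKM (0.91) and the lipid droplet coat protein PLIN2 from 31.2 ± 1.4 to 13 ± 0.34 FPKM (-1.20 ± 0.05, adjusted p = 3.2e-08). Fatty acid oxidation gave 5 rises and 11 falls among 29 genes.

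Of 36 genes of the TCA cycle and pyruvate entry 2 rose and 15 fell, among them pyruvate carboxylase (PC), from 3.09 ± 0.21 to 0.953 ± 0.22 FPKM (-1.07). Of 72 nuclear-encoded respiratory chain subunits 30 fell (41.7%, against 26.3% of all genes) and 1 rose. After median-ratio scaling 8 of them fell, beside 1811 of all 12649 genes. Without replicate 1 of all groups 45 fell, beside 3937 of all genes. The glycolytic enzyme GAPDH fell from 3399 ± 257 to 2332 ± 243 FPKM (-0.55), within a glycolysis list of 5 rises and 9 falls among 24 genes, whose median of -0.12 was that of all genes. FTL, the ferritin light chain, fell from 3574 ± 353 to 1828 ± 199.9 FPKM (-0.97 ± 0.10, adjusted p = 1.9e-05), and the metallothionein MT2A from 1167 ± 25.4 to 766.1 ± 101.7 FPKM (-0.61).

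Lysosomal genes changed in both directions, and which direction prevailed depended on the scaling, as it did over all tested genes. Of 51 hydrolases and cathepsins 12 rose and 16 fell as deposited, against 16 and 9 after median-ratio scaling. Of 49 lysosomal membrane, V-ATPase and trafficking genes 8 rose and 18 fell, against 13 and 6. Single genes kept their direction: acid sphingomyelinase SMPD1 fell from 4.46 ± 0.50 to 1.06 ± 0.17 FPKM (-1.41 ± 0.10, adjusted p = 1.2e-06), the V-ATPase subunit ATP6V1A from 17.4 ± 1.6 to 7.17 ± 0.37 FPKM (-1.17 ± 0.07, adjusted p = 4.0e-07) and the sialidase NEU1 from 64.3 ± 8.9 to 32.6 ± 2.7 FPKM (-0.95), and the endolysosomal channel TPCN1 rose from 15.9 ± 1.7 to 40.7 ± 1.5 FPKM (1.31 ± 0.07, adjusted p = 2.8e-07). The autophagy receptor NBR1 fell from 20.7 ± 0.50 to 10.5 ± 0.05 FPKM (-0.91), and DEPTOR, an inhibitor bound to mTOR, rose from 21.9 ± 1.9 to 56.6 ± 3.0 FPKM (1.33). Of 35 unfolded protein response and heat shock genes 5 rose and 10 fell as deposited and 10 rose and 5 fell after median-ratio scaling.

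Interferon and antigen presentation genes held more rises than falls, and complement genes more falls than rises. Of 45 genes of interferon signalling and response 15 rose and 10 fell, with the GTPase GBP1 going from 5.21 ± 0.85 to 12.7 ± 1.4 FPKM (1.15) and PARP9 lower by 0.89 (log2). Of 32 antigen presentation genes and immune ligands 16 rose and 5 fell, including the peptide transporter TAP1, from 12.3, 10.4 and 9.10 FPKM to 19.9, 19.2 and 20.8 FPKM (0.87), and the class I gene HLA-B, from 102.5 ± 9.7 to 157.5 ± 16.6 FPKM (0.61). HLA-B shares sequence with the other class I genes, so its level depends on how reads were assigned among them. Of 12 complement genes 8 fell and 1 rose (4 and 1 after median-ratio scaling), with the protease C1R going from 9.55 ± 0.52 to 4.46 ± 0.28 FPKM (-0.95).

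Tubule identity genes gave 8 rises and 3 falls among 17 tested. PAX8 rose from 92.0 ± 8.3 to 131.2 ± 3.2 FPKM (0.51), and its groups were separate. PDZK1, the scaffold that holds transporters at the brush border, is not a member of that list. It had the largest fall under the naming rule, from 42.7, 43.0 and 43.3 FPKM to 9.43, 10.4 and 9.42 FPKM (-2.04 ± 0.05, adjusted p = 2.2e-09). Of 17 tubule injury markers 7 rose and 4 fell. Osteopontin (SPP1) rose from 228.7 ± 29.6 to 636.5 ± 125.9 FPKM (1.46 ± 0.14, adjusted p = 1.2e-05), while KIM-1 (HAVCR1) fell from 131.3 ± 6.4 to 100.1 ± 7.2 FPKM (-0.39 ± 0.07, adjusted p = 0.0014). Among 45 solute carriers 16 rose and 8 fell, with the taurine transporter SLC6A6 going from 28.9 ± 1.5 to 13.6 ± 0.54 FPKM (-1.04).

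RNA of the inhibited kinases themselves did not pass the test. CDK8 measured 9.40, 10.8 and 10.6 FPKM with vehicle and 9.42, 11 and 10.9 FPKM with the inhibitor (log2 change 0.02 ± 0.08, adjusted p = 0.87), and CDK19 measured 7.14, 7.46 and 8.20 FPKM and then 6.11, 7.13 and 7.64 FPKM (-0.11 ± 0.09, adjusted p = 0.33). The groups overlapped for both, and the inhibitor acts on the proteins, whose activity was not measured here. Of 7 kinase module genes only MED12 was called, at -0.20 (adjusted p = 0.036), and neither rescaling of the libraries kept that call. Of 26 genes of the Mediator head, middle and tail 8 fell and none rose, and of 27 genes of pause release and elongation 7 fell and none rose, shares of falls near the background of 26.3%. After median-ratio scaling 4 and 3 of them fell. Cytosolic ribosomal proteins gave 3 falls among 79 genes (3.8%), and 42 without replicate 1 of all groups, where 3937 of all 12649 genes fell.

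**Figure D4:**
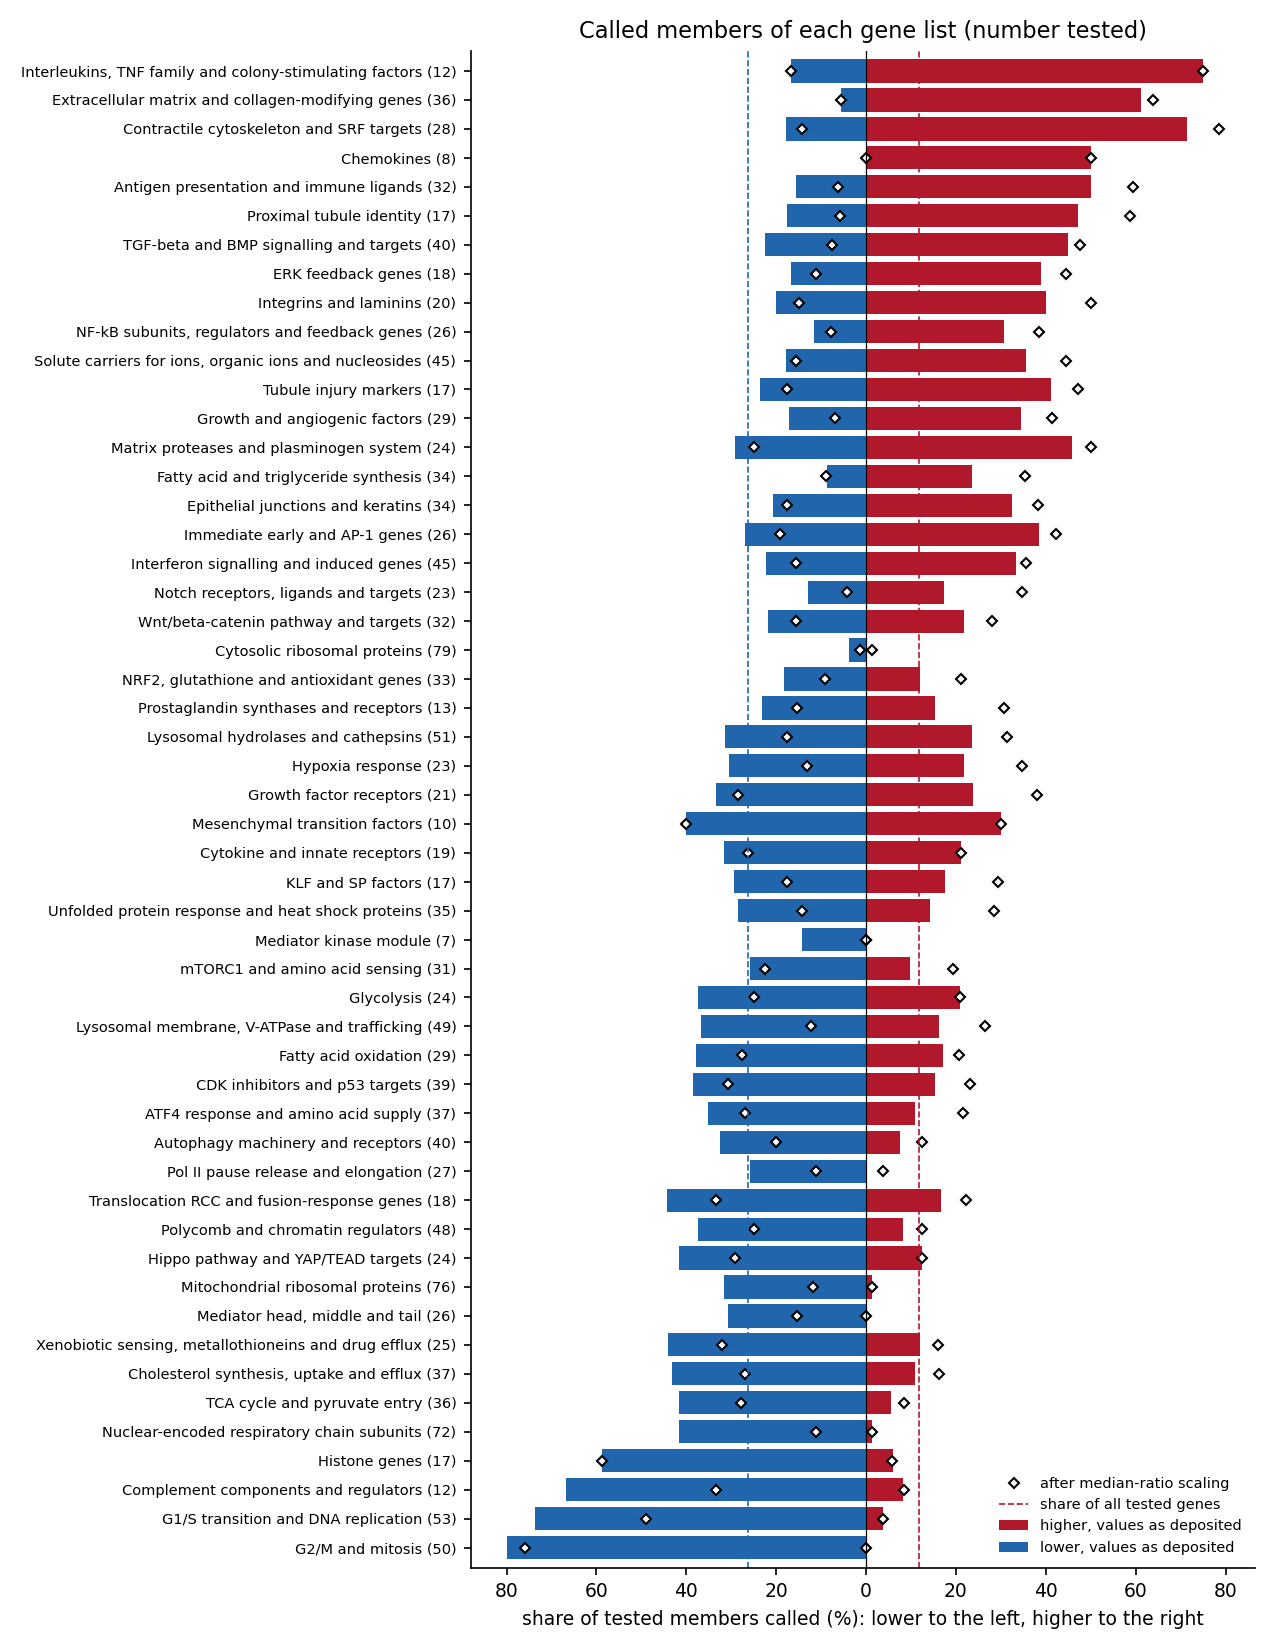
For each list of at least 5 tested genes, bars give the share of members (%) that rose (red, to the right) and fell (blue, to the left), and diamonds give the shares after median-ratio scaling. Dashed lines mark the shares over all tested genes on the values as deposited, 11.7% and 26.3%. They are not the background of the diamonds, since 2204 of 12649 genes rose and 1811 fell after median-ratio scaling. Extracellular matrix and contractile genes lie far to the right and G1/S and G2/M genes far to the left.

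The same inhibitor was given to cells with doxycycline, and the change there was compared with the change in uninduced cells by an interaction term. Those 2 changes share no libraries. The difference passed the test for 357 of 12649 genes (2.82%), 115 with a more positive change in doxycycline-treated cells and 242 with a more negative one. With trends on transcript length and GC content removed, 914 genes passed and the split was even, at 454 positive and 460 negative. The count of 357, without that correction, rested on single libraries. It was between 186 and 237 without vehicle replicate 2, inhibitor replicate 2, or replicate 2 or 3 of either group with doxycycline. With doxycycline 4063 of the 12649 genes were called. Of the 4802 genes called without doxycycline 2962 were also called with it (61.7%), which is 72.9% of the 4063. Of these 2962 genes, 2921 had the same direction and 41 the opposite one. Across the 12649 genes the changes correlated with Pearson's r of 0.72 and Spearman's rho of 0.74, a description only since genes are not independent.

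**Figure D5:**
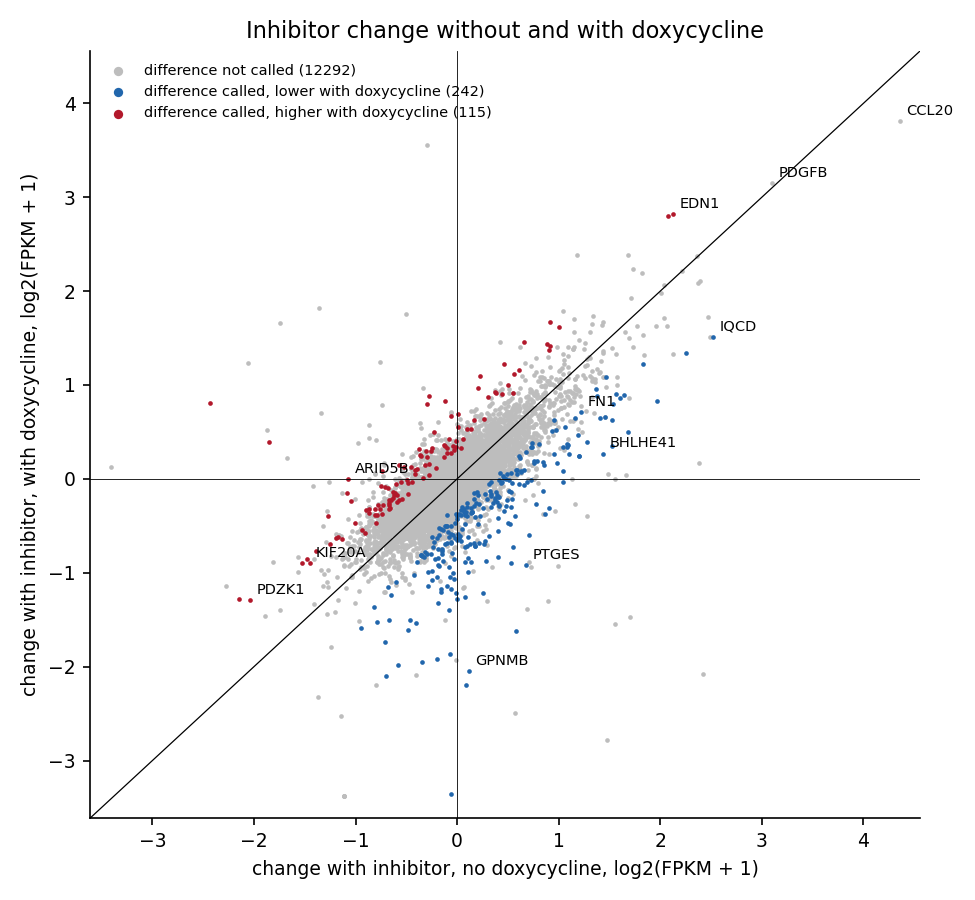
Each point is 1 gene, with its log2 change with the inhibitor without doxycycline on the horizontal axis and with doxycycline on the vertical axis. Coloured points are the 357 genes whose changes differed, 115 above and 242 below the diagonal, on values without the length and GC correction that gave 454 and 460.

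Some rises of uninduced cells were falls in doxycycline-treated cells. HMOX1, the haem-degrading enzyme, measured 40.6, 38.0 and 36.6 FPKM with vehicle and 55.2, 49.6 and 48.3 FPKM with the inhibitor (log2 change 0.40). With doxycycline it measured 54.0, 60.2 and 58.7 FPKM without the inhibitor and 32.9, 31.4 and 31.9 FPKM with it (-0.83, difference -1.23 ± 0.09, adjusted p = 5.0e-05). The groups were separate in both pairs, but the rule for the largest differences admitted only genes whose groups without doxycycline did not overlap. The prostaglandin E synthase PTGES changed by 0.68 and -0.92 (difference -1.59 ± 0.17, adjusted p = 5.4e-04), and FNIP2, a partner of folliculin, by 0.53 and -0.90 (difference -1.42 ± 0.13, adjusted p = 2.8e-04). TM4SF19, a membrane protein gene that overlaps an antisense RNA, changed by 0.71 and -0.60 (difference -1.32, adjusted p = 3.0e-04). Other rises were larger without doxycycline: that of BHLHE41, a clock repressor, was 1.44 against 0.27 (difference -1.17, adjusted p = 5.4e-04), and that of PLAT 1.53 against 0.80 (difference -0.73, adjusted p = 0.0035).

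Falls with a smaller change with doxycycline included those of ARID5B, a chromatin regulator, at -1.07 without and 0.00 with it (difference 1.07 ± 0.14, adjusted p = 0.002), IL11 at -1.08 and -0.15 (difference 0.93, adjusted p = 0.0068, and 0.056 without replicate 1 of all groups), SLC6A6 at -1.04 and -0.24 (difference 0.80, adjusted p = 3.2e-04) and PDZK1 at -2.04 and -1.29 (difference 0.75, adjusted p = 3.0e-04). The matrix protein thrombospondin 1 (THBS1) rose less without doxycycline, from 464.5 ± 9.9 to 544.0 ± 1.2 FPKM (0.23), than with it, from 219.2 ± 7.3 to 470.4 ± 6.8 FPKM (1.10, difference 0.87 ± 0.06, adjusted p = 3.3e-05). CXCL8 also rose less without doxycycline (0.56 and 1.12, difference 0.55, adjusted p = 0.026), although that call was lost after quantile normalization (adjusted p = 0.057) and without any 1 of 8 of the 12 libraries. For CCL20, PDGFB and TNF the difference was -0.55, 0.06 and -0.28 (adjusted p = 0.27, 0.91 and 0.44).

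The table does not separate reads of the TFE3 gene of the cell from those of the fusion. TFE3 fell from 35.8 ± 3.1 to 27.8 ± 1.7 FPKM without doxycycline (log2 change -0.35 ± 0.07, adjusted p = 0.0018) and by 0.82 with it (difference -0.47, adjusted p = 0.023, a call lost without any 1 of 7 of the 12 libraries). Of 18 genes listed for translocation renal carcinoma and the fusion response, 3 rose and 8 fell in uninduced cells.

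Genes that rose were richer in GC than those that fell, with median GC contents of 54.0% and 48.4%, against 49.8% over the tested genes; 94.9% of tested genes had a value. Of 11311 protein-coding genes 39.3% were called, and of long intergenic and antisense RNAs 29.2% and 27.4%. The threshold on levels left 11 genes just inside, such as ERN1 and DLX6, whose third-highest value was 1.0 FPKM and of which none was called, and 17 just outside at 0.99 FPKM, such as AKAP5. The inhibitor libraries alone carried 10 genes past the threshold and the vehicle libraries alone 1.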

How the data were processed

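RNA of 12 HK-2 cultures, 3 in each of 4 groups, was extracted with TRIzol and made into TruSeq Stranded mRNA libraries, per the labels' protocols. The deposited table holds FPKM per gene for 26334 symbols, and all 12 columns were matched to samples by their labels. Trim Galore 0.6.7, Salmon 1.9.0 and the builds GRCh38.p13 and hg38 are named, without roles, in the submitters' processing notes. How the authors went from reads to FPKM, and whether strand was used, is not given in the sources used here, so the depth per library is unknown.

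The deposited FPKM were turned into log2(FPKM + 1), and genes with at least 1 FPKM in at least 3 of the 12 libraries were tested. limma 3.58.1 in R 4.3.3 fitted 4 group means with an intensity trend (8 residual degrees of freedom). The call threshold was a Benjamini-Hochberg adjusted p of 0.05. The script was tested on simulated data. Errors of log2 changes are standard errors, and other errors are SD over 3 libraries. The difference between the changes with and without doxycycline was an interaction term.

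Gene symbols were matched to GENCODE release 29 (23793 of 26334). The genes named were first the 15 largest rises and falls with a mean of at least 3 FPKM in the higher group and no overlap of libraries (short and unnamed RNAs left out). Up to 4 rises and 4 falls in each of 54 lists and the inhibitor's targets were added. So were up to 10 called differences with doxycycline in each direction, the largest among genes also called without doxycycline. These had to pass the same limits on level and overlap, so larger differences of other genes could not enter. ACTN1, AURKA, CCNB1, COL7A1, HLA-B, IL6, LAMA3, LIF, MKI67, MYC, PLK1 and TOP2A fall outside these naming rules and were chosen after their values were seen. Results for some genes are not reported here. The members and lists were chosen with earlier results of these data known. Alternatives were the 6 libraries alone, pseudocounts of 0.1 and 5, no filter, a mean of at least 5 FPKM, median-ratio and quantile scaling, a GC correction, no trend, a replicate block and each library left out. Leaving out replicate 1 of all groups was added after seeing the data.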

Additional observations from a re-analysis of the deposited data

Results flagged for a closer look

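For 29 of the genes named, the change with the inhibitor differed between cells with and without doxycycline by limma's interaction term. Each value below is that difference (log2, change with doxycycline minus change without it), with the Benjamini-Hochberg adjusted p over 12649 genes, of which 2.82% were called.

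Genes whose change was more negative with doxycycline included PTGES (-1.59, adjusted p = 5.4e-04), FNIP2 (-1.42, adjusted p = 2.8e-04), TM4SF19 (-1.32, adjusted p = 3.0e-04), HMOX1 (-1.23, adjusted p = 5.0e-05) and BHLHE41 (-1.17, adjusted p = 5.4e-04). Among the 15 largest rises of uninduced cells they were IQCD (-1.01, adjusted p = 0.0011), an IQ-motif protein gene, and NIPAL4 (-0.91, adjusted p = 0.0031), a magnesium transporter gene. The plasminogen activator PLAT (-0.73, adjusted p = 0.0035) and fibronectin, FN1 (-0.51, adjusted p = 0.0063), belonged to the matrix lists, and the FN1 value was -0.19 (adjusted p = 0.56) after quantile normalization. CSF1 (-0.51, adjusted p = 0.033), NEU1 (-0.63, adjusted p = 0.025) and TFE3 (-0.47, adjusted p = 0.023) completed this direction.

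A more positive value with doxycycline was found for falls of uninduced cells that were PDZK1 (0.75, adjusted p = 3.0e-04), RBM47 (0.62, adjusted p = 0.0029), ELFN2 (0.63, adjusted p = 0.0092), CNKSR3 (0.63, adjusted p = 0.0016), KIF20A (0.55, adjusted p = 0.017), CCNB1 (0.39, adjusted p = 0.025), NRG1 (0.44, adjusted p = 0.0079), NBR1 (0.33, adjusted p = 0.021), HAVCR1 (0.50, adjusted p = 0.023), HMGCS1 (0.82, adjusted p = 0.0057), SLC6A6 (0.80, adjusted p = 3.2e-04), IL11 (0.93, adjusted p = 0.0068) and ARID5B (1.07, adjusted p = 0.002). For genes that rose, the value was more positive for EDN1 (0.69, adjusted p = 0.0064), ACTA2 (0.71, adjusted p = 0.022), CXCL8 (0.55, adjusted p = 0.026) and THBS1 (0.87, adjusted p = 3.3e-05). Of these 29 calls, many of them chosen by this same value, 16 held under each of 23 alternatives, which include each library left out. The calls lost were those of CSF1 (under 11 of the 23), ACTA2 and CXCL8 (9 each), CCNB1 (8), NBR1 and TFE3 (7 each), HAVCR1 (6), NEU1 (5), FN1 and KIF20A (2 each) and EDN1, ELFN2 and IL11 (1 each).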

How the results depend on the processing

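Of 131 calls named for the inhibitor in uninduced cells, 129 held under each of 18 settings, MED12 and MKI67 being the exceptions, and none reversed. Most of these genes were named for the size of their change, so they do not stand for all calls. Of all 4802 calls, 3290 were also called with median-ratio scaling, 3497 with quantile normalization and 3262 in a fit of the 6 libraries alone. The number of genes lower, 3323 on the table's own scale, was 1811 with median-ratio scaling and 2048 with quantile normalization. On unscaled values it was 2162 in a fit of the 6 libraries alone, 4401 with the replicate block, 4452 with trends on length and GC removed and 4982 with both. Leaving out 1 of the 6 libraries gave 3683 to 5011 called genes, 1221 to 1607 higher and 2462 to 3404 lower, with 152 to 169 at least 2-fold higher and 67 to 98 at least 2-fold lower. Counts of 2-fold changes rested on the pseudocount, with 243 higher and 189 lower at 0.1 and 68 and 9 at 5. The lower ones numbered 42 with median-ratio scaling, 41 with quantile normalization and 43 with a mean of at least 5 FPKM. Single fold changes of genes below about that level therefore depend on the pseudocount.

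The difference between cells with and without doxycycline was called for 914 genes with trends on length and GC removed (454 positive, 460 negative), 1188 with the replicate block added (625 and 563) and 666 with the replicate block alone (286 and 380). It was positive for 189 without replicate 1 of all groups. With 1 library left out it was called for 186 to 420, positive for 57 to 129 and negative for 126 to 294. The cause of these shifts was not tested.

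The replicate numbers were shared by all groups, but no label says that a number marks a shared batch. Deviations of same-numbered libraries correlated at 0.097 to 0.686 between vehicle and inhibitor and at -0.09 to 0.686 over all pairs of groups. The best partner had the same number in 19 of 36 cases. These values do not show that the libraries are unpaired. The main fit used no replicate block because no pairing is stated, and whether the numbers mark shared batches was not tested. With the replicate block 6167 genes were called in uninduced cells, 4798 of them shared with the 4802, and no named call was lost.

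Among 52 lists, the larger count moved by more than 1.5 times in 16 after median-ratio scaling, 11 after quantile normalization, 5 with the replicate block and 4 without replicate 1 of all groups. Under median-ratio scaling and then quantile normalization, members called lower numbered 0 and 0 in the Mediator kinase module, 4 and 3 in the rest of Mediator, 3 and 4 in pause release and elongation, 4 and 4 in complement, 3 and 3 in hypoxia, 9 and 10 in lysosomal hydrolases, 6 and 8 in lysosomal membrane genes, 8 and 7 in autophagy, 1 and 7 in cytosolic ribosomal proteins and 3 and 3 in KLF and SP factors, and Notch genes called higher numbered 8 and 7. Median-ratio scaling alone moved cholesterol genes to 10 lower, respiratory chain subunits to 8, NRF2 genes to 3, unfolded protein response genes to 5 and mitochondrial ribosomal proteins to 9. With the replicate block 13 Mediator, 11 elongation, 23 cytosolic ribosomal, 37 mitochondrial ribosomal and 5 prostaglandin genes were lower. Without replicate 1 of all groups the counts were 0 in the kinase module, 11 in elongation, 42 in cytosolic and 43 in mitochondrial ribosomal proteins.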

Other observations

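Several stress and supply pathways changed in part. Of 37 genes of the ATF4 response and amino acid supply 13 fell and 4 rose. CEBPB, a transcription factor of that response, measured 21.4, 18.3 and 13.9 FPKM with vehicle and 10.3, 9.64 and 5.46 FPKM with the inhibitor (log2 change -1.01 ± 0.21, adjusted p = 0.0027), with no overlap of the groups, while PYCR1, which makes proline, rose by 0.75. Of 25 genes of xenobiotic sensing, metallothioneins and drug efflux 11 fell and 3 rose, the latter including the drug efflux pump ABCB1 (0.78).

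Hypoxia, NRF2 and prostaglandin lists changed their prevailing direction with the scaling, as did all tested genes together. As deposited, 21.7% of hypoxia, 12.1% of NRF2 and 15.4% of prostaglandin genes rose, against 11.7% of all genes. Falls made up 30.4%, 18.2% and 23.1% in that order, against 26.3% of all genes. Of 23 hypoxia genes 5 rose and 7 fell as deposited, and 8 rose and 3 fell after median-ratio scaling. Of 33 NRF2, glutathione and antioxidant genes 4 rose and 6 fell, against 7 and 3, and of 13 prostaglandin synthases and receptors 2 rose and 3 fell, against 4 and 2. Of 76 mitochondrial ribosomal proteins 24 fell and 1 rose, a share of falls (31.6%) near that of all genes (26.3%), and 9 fell after median-ratio scaling, 37 with the replicate block and 43 without replicate 1 of all groups.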
